A study of Mus musculus with 20 samples.

Results

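The EGF receptor family consists of 4 receptor tyrosine kinases and a group of related ligands that bind them. The genes described here were taken by name. They are the receptors Egfr, Erbb2, Erbb3 and Erbb4 and the ligands Areg, Ereg, Hbegf, Tgfa, Btc and Nrg1, which make up 10 of the 45706 genes in the count files. A bound ligand joins receptors into pairs that signal through the RAS-ERK and PI3K-AKT chains. ERBB2 has no known ligand of its own and ERBB3 has little kinase activity, so both work mainly as partners of another receptor, and the ligands are made as membrane-bound precursors that proteases release. In the mammary gland, amphiregulin (Areg) carries the growth signal of estrogen to the ducts, and EGF receptors taken up by the cell are broken down in lysosomes, where cathepsin D (Ctsd) is a major protease.

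The samples were mammary tumors and tumor cell lines of MMTV-PyMT mice on a C57BL/6N background, in which the MMTV promoter drives polyoma middle T antigen in the mammary epithelium. In MMTV-cre;Ctsd−/− mice a Cre transgene under the same promoter removes floxed Ctsd from luminal and basal mammary epithelium, so the stroma of these tumors keeps the gene. The tumors came from 18-week-old mice, 4 MMTV-cre;Ctsd−/− and 4 controls, which the labels call wild type and which in this study carried wild-type or floxed Ctsd. The cells came from 1 spontaneously immortalised Ctsd+/+ line and 1 Ctsd−/− line of an MMTV-cre;Ctsd−/− mouse, kept in a starvation medium with 1% FCS, glutamine and antibiotics. Culture lasted 10 days in the groups called 1% FCS and 12 weeks in those called 1% FCS LT, with 3 samples in each of the 4 groups. Since the replicates of a cell group are repeat samples of 1 line, a p-value here measures spread between repeat samples, and genotype and line cannot be told apart.

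Counts assigned to genes ranged from 49725437 to 64291587 per tumor and from 33622831 to 40239762 per cell sample. Levels are given as CPM, counts scaled by library size times the TMM factor, with means ± SD over 4 tumors or 3 cell samples. Differences are log2 fold changes from edgeR, positive where Ctsd−/− or the longer culture is higher, with adjusted p-values over all genes tested and a call at an adjusted p under 0.05. Library labels carry an LR number. All control tumors have one number and all MMTV-cre;Ctsd−/− tumors another, so the LR number and genotype cannot be told apart. In cells 8 of the 12 samples share an LR number, while replicate 1 of both 1% FCS groups and replicate 3 of both LT groups have other numbers.

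Ctsd, the targeted gene, separated the genotypes in every comparison. Control tumors had 1860, 2617, 1781 and 2532 CPM, and MMTV-cre;Ctsd−/− tumors had 797.1, 360.2, 1295 and 1233 CPM. The 4 deleted tumors lay below all 4 controls, with a log2 fold change of −1.25 (SE 0.38, adjusted p = 0.463 by edgeR). In 1% FCS, Ctsd+/+ cells had 4199, 2858 and 1267 CPM and Ctsd−/− cells had 192.4, 140.8 and 131.1 CPM. After long-term culture the values were 1627, 1667 and 1895 CPM against 122.8, 114 and 151.1 CPM. No Ctsd−/− cell sample came near a Ctsd+/+ sample (log2 fold changes −4.16 and −3.74).

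In tumors, no family gene differed between the genotypes by more than the spread between animals once p was adjusted over all genes, whereas most of them differed between the cell lines. edgeR called 0 of the 10 members in tumors, beside 1 of all 18617 genes tested (0.00537%). At an unadjusted p under 0.05 edgeR gave 1 member, DESeq2 1 and limma-voom 2, beside 1665, 2128 and 1377 of all 18617 genes. Neither DESeq2 nor limma-voom called any member after adjustment. At the study's tumor threshold, an uncorrected p under 0.1, 0 members were higher and 1, Nrg1, was lower, beside 8.44% of all genes higher and 8.27% lower. A count of 1 in 10 is near that background. The median log2 fold change of the members was −0.31, beside 0.0007 for all genes (−0.039 for the receptors and −0.72 for the ligands). The median absolute log2 fold change was 0.313, near the 0.307 of all genes.

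In 1% FCS, 4 members were higher in Ctsd−/− cells (Erbb3, Areg, Tgfa and Btc) and 5 were lower (Egfr, Erbb2, Erbb4, Ereg and Nrg1), beside 23.5% of 15178 tested genes higher and 25.1% lower. In 1% FCS LT, 5 ligands were higher (Areg, Hbegf, Tgfa, Btc and Nrg1) and 4 members were lower (Erbb2, Erbb3, Erbb4 and Ereg), beside backgrounds of 20.5% and 19.1%. Ereg and Erbb4 passed the filter on low counts in cells only through the Ctsd+/+ groups, so these 2 had to differ and their counts carry no weight. Among the other 8 members, 4 were higher and 3 lower in 1% FCS and 5 and 2 in LT, with median absolute log2 fold changes of 1.28 and 1.13 beside 0.50 and 0.42 for all genes. Within the 8 samples that share an LR number the counts, with Ereg and Erbb4 among them, were 4 higher and 5 lower in 1% FCS and 4 and 4 in LT. No share of all genes in that smaller fit stands beside them, so they are not set against a background.

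Changes with long-term culture were compared within each line. In Ctsd+/+ cells Erbb3, Areg and Tgfa rose and Egfr and Nrg1 fell between 1% FCS and LT, 3 and 2 members beside 23% of all genes higher and 23.4% lower. DESeq2 and limma-voom each called 5 members higher there, Ereg and Btc being added, beside 3601 and 3552 of all 15178 genes higher. In Ctsd−/− cells edgeR called 0 members higher and 1, Egfr, lower, beside 1.57% and 0.81% of all genes. At an unadjusted p under 0.05 edgeR gave 5 members, beside 2727 of all 15178 genes. Ereg, 1 of these 5, rests on 0, 0 and 0 counts in 1% FCS against 0, 3 and 1 in LT and carries no weight. After adjustment DESeq2 and limma-voom each called 1 higher, Btc, beside 666 and 182 of all 15178 genes higher. The genotype effect itself differed between the culture times for Nrg1 (1 member higher) and for Erbb3 and Tgfa (2 lower), beside 16.1% and 14.1% of all genes for this interaction test. Within the 8 samples the counts were 4 and 3 in Ctsd+/+ cells, 1 and 1 in Ctsd−/− cells and 2 and 2 for the interaction. These counts, too, have no share of all genes in that fit beside them and are not set against a background. These comparisons share samples, so their values are set side by side without a test of one against another beyond the interaction.

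**Figure D1:**
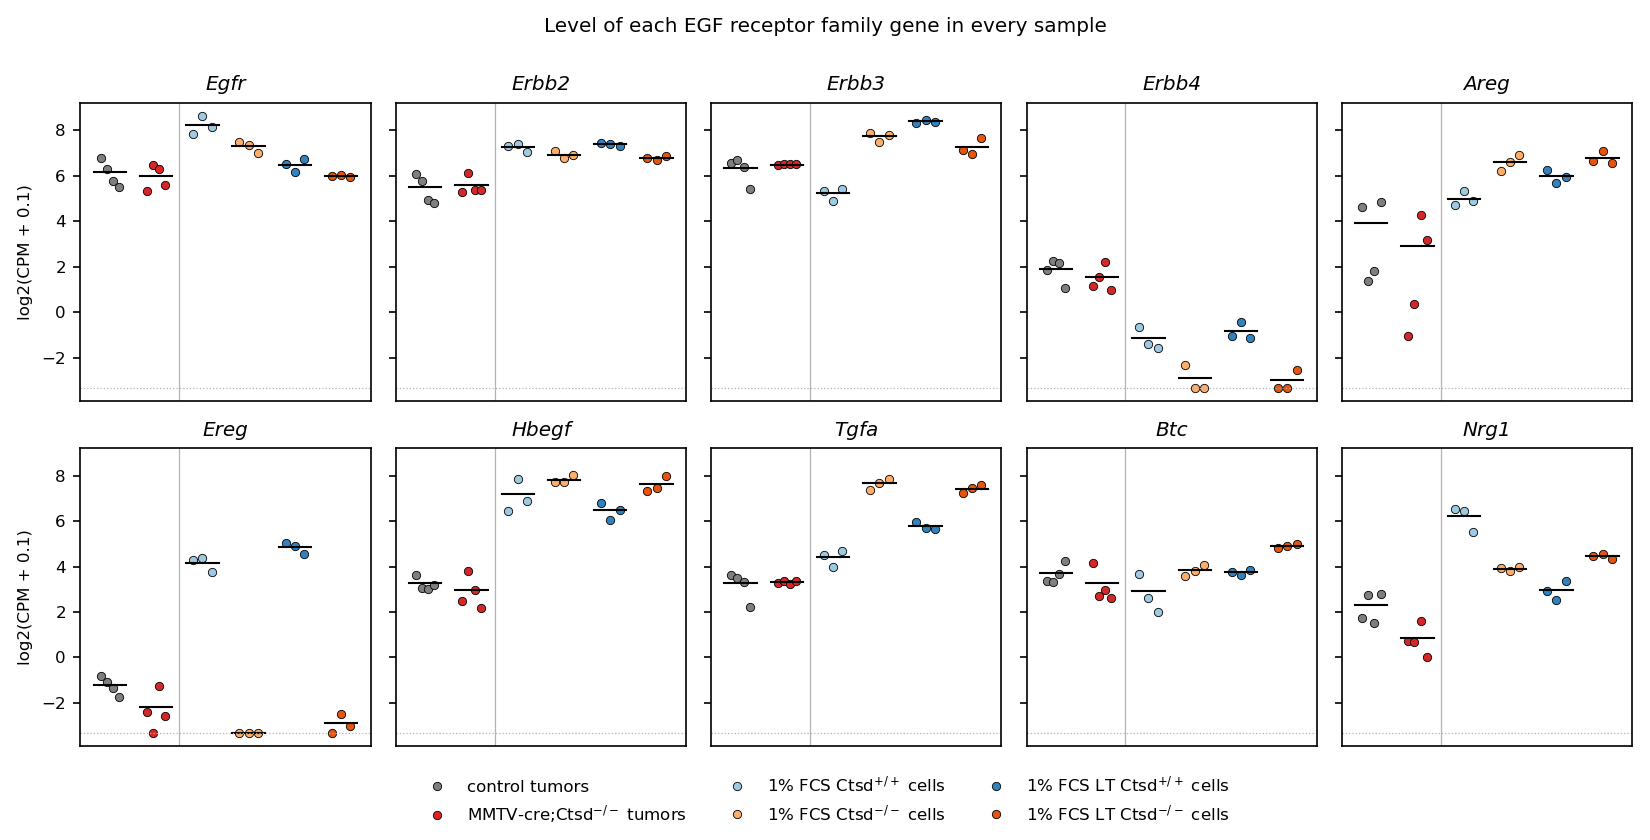
Level of each gene in every sample as log2(CPM + 0.1), 1 panel per gene, with 1 point per sample. A bar marks the mean CPM of the group, put on the same log scale after averaging. The dotted line marks 0 CPM. Ereg lies on or next to it in both Ctsd−/− cell groups, while tumor values of the genotypes overlap in each panel.

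Among the receptors in tumors, Erbb3 was the most abundant per length of exon and Erbb4 the least. In control tumors the levels in CPM per kb were 13.6 ± 4.59 for Erbb3, 8.69 ± 3.64 for Erbb2, 6.38 ± 2.59 for Egfr and 0.293 ± 0.0975 for Erbb4. In MMTV-cre;Ctsd−/− tumors they were 15.0 ± 0.258, 9.27 ± 2.82, 5.67 ± 2.11 and 0.229 ± 0.0958 CPM per kb, in the same order. Each of the 4 control and 4 MMTV-cre;Ctsd−/− tumors had this order on its own. The ranges over tumors still overlapped between Erbb3 and Erbb2 in the controls and between Erbb2 and Egfr in both genotypes. The 4 receptors summed to 29.0 ± 10.1 CPM per kb in controls and 30.2 ± 4.75 in MMTV-cre;Ctsd−/− tumors.

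None of the receptors separated the tumors by genotype. Erbb3, the kinase-poor partner that binds neuregulins, had 96.1, 105.2, 83.5 and 42.7 CPM in controls and 88.1, 90.7, 91.4 and 91.4 CPM in MMTV-cre;Ctsd−/− tumors. The deleted tumors sat close together inside the range of the controls, in which replicate 4 was low. That library stands apart in other ways. Its TMM scaling factor was 0.793 against 0.988 to 1.06 in the other controls. It had 15.6% of reads on several genes against 8.44 to 12.4%, and skeletal muscle markers at 866.2 CPM against 1.61 to 15.6 CPM. MMTV-cre;Ctsd−/− replicate 1 was high in these muscle markers too, at 226 CPM against 4.81 to 61.4 CPM in the other deleted tumors. The part of these features in the gene levels was not tested. The log2 fold changes were 0.14 (SE 0.26) for Erbb3, 0.09 (SE 0.32) for Erbb2, −0.17 (SE 0.34) for Egfr and −0.35 (SE 0.39) for Erbb4, with adjusted p from 0.763 to 0.932. These tumors are mixtures of cells, and in bulk RNA fewer cells of a type and less RNA per cell cannot be told apart. Signs for Egfr, Erbb2 and Erbb3 turned with single tumors left out: Egfr was 0.115 without control replicate 1, Erbb2 −0.146 without MMTV-cre;Ctsd−/− replicate 2 while without control replicate 4 Erbb3 was −0.069 and Erbb2 −0.074. Erbb4 kept its sign and ranged from −0.67 to −0.20. Tumor counts were taken regardless of strand, so they do not tell the strand of a read on Egfr or its antisense neighbour Egfros. Any read over both genes falls among the reads on several genes, which were left out. Other members, such as Erbb2 and Nrg1, also overlap genes on the other strand.

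In cells, Erbb3 differed with both genotype and culture time. Ctsd+/+ cells had 40.8, 29.6 and 43.4 CPM in 1% FCS and 325.4, 355.2 and 336 CPM in LT. Ctsd−/− cells had 235.5, 180.2 and 223.7 CPM in 1% FCS and 139.8, 126.5 and 200.3 CPM in LT. Ctsd+/+ cells of 1% FCS were thus the lowest of the 4 groups and the same line after long-term culture the highest, with no overlap with either Ctsd−/− group. Erbb3 was higher in Ctsd−/− cells in 1% FCS (log2 fold change 2.49, SE 0.19, adjusted p = 1.73e-06 by edgeR) and lower in LT (−1.12, SE 0.19, adjusted p = 0.000568). The effects differed by −3.61 (SE 0.27, adjusted p = 3.89e-06), and within the 8 samples that share an LR number by −3.82. Over time Erbb3 rose by a log2 fold change of 3.16 (SE 0.20) in Ctsd+/+ cells, 8.93-fold, while the change of −0.45 (SE 0.18, adjusted p = 0.221) in Ctsd−/− cells did not pass the test.

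Egfr, the receptor for EGF, amphiregulin and TGF-alpha, followed another course and fell with long-term culture in both lines. Its levels in 1% FCS were 230.1, 393.8 and 283.6 CPM in Ctsd+/+ against 179.3, 164.6 and 129.1 CPM in Ctsd−/− cells. In LT they were 91.4, 71.1 and 106.2 CPM in Ctsd+/+ against 64.2, 66.0 and 60.9 CPM in Ctsd−/− cells. The groups did not overlap at either time, and every LT sample was below every 1% FCS sample. Egfr was lower in Ctsd−/− cells in 1% FCS (log2 fold change −0.94, SE 0.20, adjusted p = 0.00225), and the difference of −0.49 in LT (SE 0.20) missed the threshold with edgeR (adjusted p = 0.0698). DESeq2 called it (adjusted p = 0.0455), as did edgeR without Ctsd+/+ LT replicate 2 (−0.63, adjusted p = 0.0380), over a range of 0.0247 to 0.239 across the alternatives. With time Egfr fell by 1.76 on the log2 scale in Ctsd+/+ cells (SE 0.20, adjusted p = 3.43e-05) and by 1.31 in Ctsd−/− cells (SE 0.20, adjusted p = 0.0100). The difference between those effects was 0.45 (SE 0.28, adjusted p = 0.257), and within the 8 samples that share an LR number it was 0.89 (adjusted p = 0.0461).

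Erbb2, the partner without a known ligand, varied least. Ctsd+/+ cells had 158.3, 167.6 and 131.8 CPM in 1% FCS and 175.1, 171.7 and 158.1 CPM in LT. Ctsd−/− cells had 135, 109.7 and 121.3 CPM in 1% FCS and 111.5, 105.4 and 116.5 CPM in LT. The genotypes overlapped in 1% FCS by 1 sample and were apart in LT. The log2 fold change was −0.60 in LT (SE 0.11, adjusted p = 0.00122) and −0.32 in 1% FCS (SE 0.11, adjusted p = 0.0306). The 1% FCS call was lost when Ctsd+/+ replicate 1 (−0.29, adjusted p = 0.0778) or 2 (−0.25, 0.114), or Ctsd−/− replicate 2 (−0.25, 0.124) or 3 (−0.32, 0.0826) was left out, without a filter on low counts (−0.32, 0.0754) and with only the groups of the comparison (0.0876). No effect of time on Erbb2 passed the test (−0.14 in Ctsd−/− and 0.14 in Ctsd+/+ cells).

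Erbb4, a neuregulin receptor that is active in the lactating gland, was close to the detection limit in cells. Its read counts were 18, 9 and 9 in Ctsd+/+ cells of 1% FCS and 14, 24 and 14 in LT, against 4, 0 and 0 and 0, 0 and 3 in Ctsd−/− cells. The Ctsd+/+ samples were higher at both times. The ratio of Ctsd+/+ to Ctsd−/− was 9.75 in 1% FCS (95% counting interval 3.81 to 35.8) and 18.6 in LT (6.36 to 90.2), and these intervals cover counting error only. The 1% FCS call was lost without Ctsd+/+ replicate 1 (adjusted p = 0.0524) or without Ctsd−/− replicate 2 (0.0548) or 3 (0.0541).

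The order of the receptors per length of exon therefore differed between the cell groups. In Ctsd+/+ cells of 1% FCS Erbb2 (29.3 ± 3.57 CPM per kb) and Egfr (26.7 ± 7.37) overlapped and Erbb3 followed at 6.31 ± 1.21. In the other 3 groups Erbb3 led, with 35.4 ± 4.84 CPM per kb in Ctsd−/− cells of 1% FCS, 56.3 ± 2.51 in Ctsd+/+ LT and 25.9 ± 6.54 in Ctsd−/− LT, followed by Erbb2 and then Egfr. Only in Ctsd−/− LT did the ranges of Erbb3 and Erbb2 overlap among these 3 groups. As a share of the summed receptor level per kb, Egfr made up 42.4 ± 6.60% in Ctsd+/+ cells of 1% FCS but 8.21 ± 1.72% in the same line after long-term culture, and 19.2 ± 3.17% and 10.8 ± 1.83% in Ctsd−/− cells.

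Markers of epithelial and mesenchymal cells also differed between the cell groups. The 6 luminal epithelial markers, Krt8, Krt18, Krt19, Epcam, Cdh1 and Elf5, summed to 878.1, 1417 and 1692 CPM in Ctsd+/+ cells of 1% FCS and to 7311, 9668 and 10112 CPM in Ctsd−/− cells, with Krt8 and Krt18 the most abundant. Of the 5 tested, 5 were higher in Ctsd−/− cells, beside 23.5% of all genes. The 8 fibroblast and mesenchymal markers summed to 3928, 6277 and 5154 CPM in Ctsd+/+ cells and to 20.5, 16.1 and 15.4 CPM in Ctsd−/− cells. Vim was most abundant, Lum was at 0 in both groups, and 6 of 6 tested were lower, beside 25.1% of all genes. Among these 6, Col3a1 had at most 7 counts in a sample of any other cell group. It passed the filter through Ctsd+/+ cells of 1% FCS alone, so it had to be lower and carries no weight. In LT the luminal sums were 4703, 4506 and 4285 CPM in Ctsd+/+ against 5196, 5660 and 6011 CPM in Ctsd−/− cells. Of the 5 luminal markers tested, 1 was higher and 1 lower in Ctsd−/− LT cells, beside 20.5% and 19.1% of all genes. The mesenchymal sums there were 6.08, 4.90 and 15.5 CPM against 909.6, 520.4 and 47.6 CPM. Of the 6 tested, 3 were higher in Ctsd−/− cells, beside the same 20.5%. The Ctsd+/+ line thus had its low Erbb3 and high Egfr in the samples with high mesenchymal and low luminal marker levels. In the Ctsd−/− line, between 1% FCS and LT, the mean mesenchymal sum went from 17.3 ± 2.75 to 492.6 ± 431.7 CPM. Of this LT mean, Vim alone made up 451.3 CPM. The luminal sum went from 9031 ± 1505 to 5622 ± 409 CPM. With time 1 of 6 mesenchymal markers tested was higher and 1 of 5 luminal markers was lower, beside 1.57% and 0.81% of all genes. Mean levels in these 2 groups were 213.1 and 155.5 CPM for Erbb3 and 157.7 and 63.7 CPM for Egfr. The part of these markers in the receptor differences was not tested. Of the 5 basal epithelial markers 1 was higher and 3 were lower in Ctsd−/− cells of 1% FCS, beside 23.5% and 25.1% of all genes. Their sums were 5.72 to 8.45 CPM against 45.2 to 101.1 CPM, with Krt14 most abundant and Acta2 at 0 in Ctsd−/− cells. Acta2 had at most 2 counts in a sample outside Ctsd+/+ cells of 1% FCS. It passed the filter through that group alone, so it had to be lower and carries no weight. T cell markers were at 0 in all 6 samples of 1% FCS. Of the 7 adipocyte markers, Adipoq, Plin1, Lep, Cfd and Cidec were likewise at 0 there. The other 2, Lipe and Fabp4, were tested and both were higher in Ctsd−/− cells, beside 23.5% of all genes. Mean Lipe levels were 8.748 CPM in Ctsd+/+ and 20.97 CPM in Ctsd−/− cells. Fabp4 was low, with 1, 0 and 2 counts against 30, 8 and 9.

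**Figure D2:**
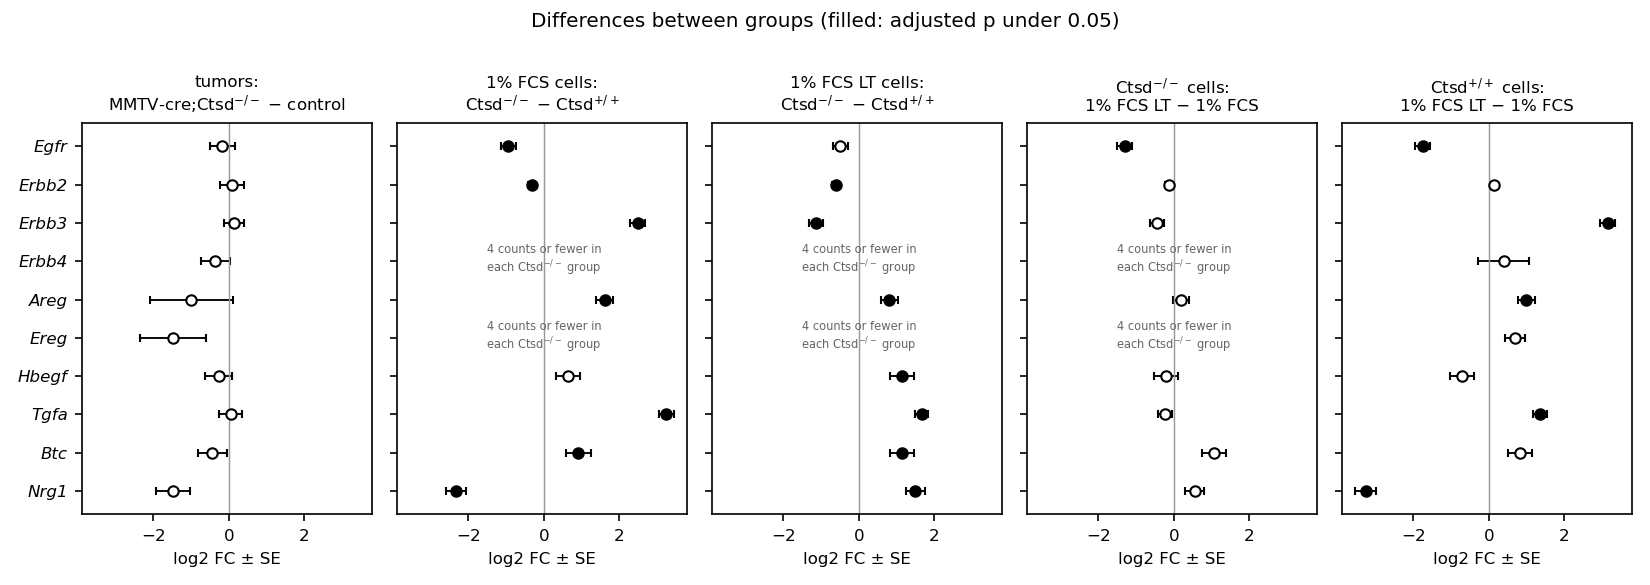
Log2 fold change ± SE of each gene in 5 comparisons (x axis), positive to the right, with filled points where the adjusted p is under 0.05. Erbb4 and Ereg are left out of 3 cell comparisons because the Ctsd−/− groups hold 4 counts or fewer; Erbb3 and Nrg1 lie on opposite sides of 0 in 1% FCS and 1% FCS LT cells.

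Turning to the ligands, Areg and Nrg1 had the largest differences in tumors apart from Ereg, which was near the detection limit, but the tumors of a group were far apart. Areg had 24.9, 2.52, 3.40 and 28.8 CPM in control tumors and 0.380, 1.20, 19.4 and 8.89 CPM in MMTV-cre;Ctsd−/− tumors. Each genotype held both high and low tumors, and the groups overlapped (log2 fold change −0.996, SE 1.10, adjusted p = 0.765). The Areg value was −2.09 without MMTV-cre;Ctsd−/− replicate 3, −0.43 without control replicate 4, −4.49 with the adipocyte markers as a covariate and 0.42 with the luminal markers, with adjusted p from 0.6301 to 0.979 over the alternatives. Nrg1, the neuregulin that binds ERBB3 and ERBB4, had 3.27, 6.56, 2.80 and 6.77 CPM in controls and 1.56, 1.49, 2.92 and 0.913 CPM in MMTV-cre;Ctsd−/− tumors. Only replicate 3 of the deleted tumors reached into the control range. Its log2 fold change was −1.49 (SE 0.45, unadjusted p = 0.00746 and adjusted p = 0.461 by edgeR), and leaving out single tumors gave values from −1.87 to −1.28. With the luminal markers as a covariate it was −0.66, which no longer passed the uncorrected threshold (adjusted p = 0.821), and over all alternatives the adjusted p ranged from 0.0552 to 0.932.

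The other ligands were flat or uncertain in tumors. Ereg, which encodes epiregulin, had 31, 24, 18 and 8 counts in controls and 6, 0, 21 and 4 in MMTV-cre;Ctsd−/− tumors, and these overlapped. Hbegf, Tgfa and Btc had log2 fold changes of −0.27 (SE 0.36), 0.05 (SE 0.30) and −0.45 (SE 0.38), with adjusted p from 0.7102 to 0.962. With single tumors left out Hbegf ranged from −0.70 (without MMTV-cre;Ctsd−/− replicate 2) to −0.073, Tgfa from −0.17 to 0.21 and Btc from −0.94 (without MMTV-cre;Ctsd−/− replicate 1, adjusted p = 0.319) to −0.19. Per kb of exon, Areg led the ligands with 12.3 ± 11.4 CPM in controls and 6.14 ± 7.26 in MMTV-cre;Ctsd−/− tumors, followed by Btc (2.87 ± 0.933 and 2.11 ± 1.24), Hbegf (1.96 ± 0.413 and 1.62 ± 0.879) and Tgfa (1.46 ± 0.536 and 1.52 ± 0.0699). These 4 overlapped with their neighbours in the order. On its own Areg stood above Btc in 3 of 4 controls and in 2 of 4 MMTV-cre;Ctsd−/− tumors. Nrg1 (0.469 ± 0.204 and 0.166 ± 0.0822 CPM per kb) and Ereg (0.0811 ± 0.0271 and 0.0286 ± 0.0331) came last and did not overlap with the ligand above them.

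Of the 5 further ligands of the family, which are not among the members, 4 passed the filter in tumors. At an uncorrected p under 0.1, Nrg4 and Egf were higher and Epgn was lower in MMTV-cre;Ctsd−/− tumors, beside 8.44% of all genes higher and 8.27% lower, and edgeR called none after adjustment (adjusted p at least 0.349). All 3 had an unadjusted p under 0.05 with edgeR, beside 1665 of all 18617 genes. After adjustment DESeq2 called 3 (2 higher and 1 lower) and limma-voom 0, beside 265 and 2 of all genes. Nrg4, a neuregulin made by adipose tissue, had 5.79, 9.06, 4.59 and 10.2 CPM in controls and 14.4, 10.5, 29.6 and 62.1 CPM in MMTV-cre;Ctsd−/− tumors (log2 fold change 1.98, SE 0.53). The groups did not overlap. The 7 adipocyte markers summed to 893.8, 3249, 534.3 and 5582 CPM in controls and to 8048, 3379, 10710 and 23191 CPM in MMTV-cre;Ctsd−/− tumors, with Cfd most abundant, no marker at 0, and 7 of 7 higher at that threshold. With these markers as a covariate the log2 fold change of Nrg4 was −0.056 (adjusted p = 0.984). Epgn, which encodes epigen, had 2.13 ± 0.922 CPM in controls and 0.591 ± 0.184 in MMTV-cre;Ctsd−/− tumors (−1.84, SE 0.43), and Egf had 5.25 ± 0.690 and 9.73 ± 2.17 (0.89, SE 0.25). Of the endothelial markers, 4 of 5 were higher as well (sums 79.7, 94.4, 45.0 and 46.3 CPM against 60.8, 94.0, 234 and 224.2 CPM, Pecam1 most abundant), and their part in the ligand values was not tested. Schwann cell markers were higher for 2 of 4 and fibroblast markers for 1 of 8. Counts of the luminal, basal, macrophage, T cell and skeletal muscle markers at this threshold were 0 in both directions by edgeR, with luminal sums of 5506, 6103, 4809 and 8033 CPM in controls and 4117, 4471, 5943 and 4911 CPM in MMTV-cre;Ctsd−/− tumors.

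In cells, 4 of the ligands that bind EGFR, namely Tgfa, Areg, Hbegf and Btc, had higher mean levels in Ctsd−/− than in Ctsd+/+ cells at both times. Tgfa, which encodes TGF-alpha, showed the largest of these differences. It had 22.6, 15.8 and 25.3 CPM in Ctsd+/+ cells against 164, 207.7 and 234.9 CPM in Ctsd−/− cells of 1% FCS. After 12 weeks the levels were 61.7, 52.1 and 49.9 CPM in Ctsd+/+ cells against 149.7, 176.7 and 191.6 CPM in Ctsd−/− cells. No Ctsd+/+ sample reached a Ctsd−/− sample. The log2 fold change was 3.25 in 1% FCS (SE 0.20, adjusted p = 2.76e-07), 9.51-fold, and 1.66 in LT (SE 0.18, adjusted p = 3.28e-05). The difference between them was −1.59 (SE 0.26, adjusted p = 0.000784), and with time Tgfa rose in Ctsd+/+ cells by a log2 fold change of 1.36 (SE 0.18).

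Areg was higher in Ctsd−/− cells as well. In 1% FCS it had 26.2, 39.7 and 29.3 CPM in Ctsd+/+ against 75.0, 96.6 and 119.5 CPM in Ctsd−/− cells. After 12 weeks the levels were 76.4, 50.9 and 61.8 CPM in Ctsd+/+ against 100.9, 136.7 and 94.2 CPM in Ctsd−/− cells. The groups were apart at both times, with a smaller gap in LT. The log2 fold change was 1.61 in 1% FCS (SE 0.23, adjusted p = 0.000121) and 0.81 in LT (SE 0.22, adjusted p = 0.0120). The LT call was lost without Ctsd+/+ LT replicate 2 (0.68, adjusted p = 0.0547) or Ctsd−/− LT replicate 2 (0.64, adjusted p = 0.0567), over a range of adjusted p from 0.00210 to 0.0567. The difference between the effects, −0.80, missed the threshold (SE 0.31, adjusted p = 0.0720) and passed it without Ctsd+/+ replicate 2 (−1.01, adjusted p = 0.0376), Ctsd−/− replicate 1 (−0.96, 0.0382) or Ctsd−/− LT replicate 2 (−0.98, 0.0446), and without a filter on low counts (−0.79, 0.0499). With time Areg rose in Ctsd+/+ cells (0.99, SE 0.22, adjusted p = 0.00334).

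Hbegf and Btc, which encode heparin-binding EGF and betacellulin, were less even across samples. Hbegf had 88.0, 228.9 and 119.5 CPM in Ctsd+/+ against 212.4, 211.7 and 258.3 CPM in Ctsd−/− cells of 1% FCS. Replicate 2 of the Ctsd+/+ cells lay within the Ctsd−/− range, and the log2 fold change of 0.65 (SE 0.32, adjusted p = 0.112) did not pass the test with it but did without it (1.13, adjusted p = 0.00512). In LT Hbegf had 112, 65.3 and 90.5 CPM in Ctsd+/+ against 159.6, 175.3 and 255.1 CPM in Ctsd−/− cells. These did not overlap (1.14, SE 0.32, adjusted p = 0.0139), but the call was lost without Ctsd+/+ LT replicate 2 (0.96, adjusted p = 0.0612), without Ctsd−/− LT replicate 3 (0.91, adjusted p = 0.0569) and within the 8 samples that share an LR number (0.92, adjusted p = 0.0594). Btc had 12.7, 5.99 and 3.899 CPM in Ctsd+/+ against 12.1, 13.7 and 16.8 CPM in Ctsd−/− cells of 1% FCS. Replicate 1 of the Ctsd+/+ cells, which has another LR number than replicates 2 and 3, was inside the Ctsd−/− range. The log2 fold change was 0.92 (SE 0.32, adjusted p = 0.0340), and 1.63 within the 8 samples that share an LR number (adjusted p = 0.000703). It rose to 1.52 without Ctsd+/+ replicate 1, and the call was lost without Ctsd+/+ replicate 2 (0.78, adjusted p = 0.112) or 3 (0.58, adjusted p = 0.0912) or Ctsd−/− replicate 2 (0.94, adjusted p = 0.0638) or 3 (0.78, adjusted p = 0.109), and with only the groups of the comparison (adjusted p = 0.1096). In LT the Btc values, 13.7, 12.3 and 14.2 CPM against 27.9, 30.0 and 31.4 CPM, were far apart (1.15, SE 0.32, adjusted p = 0.0133). The change of Btc with time, 1.07 in Ctsd−/− and 0.83 in Ctsd+/+ cells, missed the threshold with edgeR (adjusted p = 0.105 and 0.0517). Single samples left out moved the latter between 0.52 (without Ctsd+/+ replicate 3 of 1% FCS) and 1.44 (without replicate 1 of that group, adjusted p = 0.00025), with adjusted p up to 0.152 over all alternatives. For Hbegf the change of −0.70 in Ctsd+/+ cells (adjusted p = 0.0884) was −0.97 without replicate 1 of that group (adjusted p = 0.0195) and −0.21 without replicate 2 (adjusted p = 0.5297).

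Nrg1 reversed between the culture times. In 1% FCS it had 92.4, 86.0 and 46.1 CPM in Ctsd+/+ against 15.1, 13.9 and 15.5 CPM in Ctsd−/− cells. After 12 weeks the levels were 7.43, 5.70 and 10.1 CPM in Ctsd+/+ against 21.8, 23.4 and 20.2 CPM in Ctsd−/− cells. The Ctsd+/+ line thus had both the highest and the lowest levels of the 4 groups, and no groups of different genotype overlapped at either time. Nrg1 was lower in Ctsd−/− cells in 1% FCS (log2 fold change −2.33, SE 0.26, adjusted p = 2.00e-05) and higher in LT (1.49, SE 0.25, adjusted p = 0.000671). The effects differed by 3.82 (SE 0.36, adjusted p = 1.98e-05), and within the 8 samples that share an LR number by 3.95. With time Nrg1 fell by 3.27 on the log2 scale in Ctsd+/+ cells (SE 0.27), to a level 9.65-fold lower, while the change of 0.55 in Ctsd−/− cells (SE 0.25, adjusted p = 0.266) did not pass the test. Nrg1 and its receptor Erbb3 therefore stood on opposite sides in both genotype comparisons. The high Nrg1 samples were those with the high mesenchymal marker sums, whose part was not tested.

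Ereg was the member nearest to all or none. It had 641, 681 and 520 counts in Ctsd+/+ cells of 1% FCS (17.9 ± 3.78 CPM) and 0, 0 and 0 in Ctsd−/− cells, which with a floor of 3 counts per library is at least 201.6-fold lower. After 12 weeks the levels were 1211, 1119 and 932 counts in Ctsd+/+ cells (28.7 ± 4.64 CPM) and 0, 3 and 1 in Ctsd−/− cells. The ratio was 875.6 (95% counting interval 342 to 3214), and this interval covers counting error only. Reads of epiregulin RNA were thus present in every Ctsd+/+ sample and at or near 0 in every Ctsd−/− sample, whatever the LR number. The rise of Ereg with time in Ctsd+/+ cells, 0.68 on the log2 scale (SE 0.26), missed the threshold with edgeR (adjusted p = 0.0565) and passed it with DESeq2 and limma-voom (adjusted p = 0.0121 and 0.00810). With edgeR itself it passed with a replicate block (0.70, adjusted p = 0.0357), without a filter on low counts (adjusted p = 0.0420) and with only the groups of the comparison (adjusted p = 0.0310), and adjusted p reached 0.170 over the alternatives.

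Ereg lies in a cluster of EGF family genes on chromosome 5 (GRCm38), with Epgn at 91027464 to 91035215, Ereg at 91074622 to 91093646 and Areg at 91139599 to 91148432 on the plus strand, and Btc at 91357261 to 91402994 on the minus strand. Of its neighbours, Epgn, Areg and Btc did not share its pattern. Epgn had 4.55 ± 3.33 and 5.41 ± 1.16 CPM in Ctsd+/+ and Ctsd−/− cells of 1% FCS and 4.48 ± 1.14 and 5.38 ± 1.48 CPM in LT. Differences of 0.25 (SE 0.43) and 0.26 (SE 0.43) did not pass the test (adjusted p = 0.652 and 0.660). In 1% FCS, Ctsd+/+ replicate 1, with another LR number, had 8.37 CPM, above all Ctsd−/− samples (4.09 to 6.24 CPM). Replicates 2 and 3 had 3.05 and 2.225 CPM, below all of those samples. Areg and Btc on the other side were higher in Ctsd−/− cells at both times, as given above. The antisense gene Gm19610, singled out after its values were seen, overlaps the first bases of Ereg on the other strand, from 91051871 to 91074773. It had 2.20 ± 0.384 CPM in Ctsd+/+ cells of 1% FCS and 1.19 ± 0.0485 CPM in LT, and no read in any of the 6 Ctsd−/− samples, at least 24.8-fold and 15.4-fold lower with the same floor. Gm19610 passed the filter in cells only through the Ctsd+/+ groups, so it had to be lower and carries no weight. In the cell samples about 97.1% of reads or more lie on the expected strand, and where in Gm19610 its reads lie was not examined, so a part from Ereg was not tested.

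**Figure D3:**
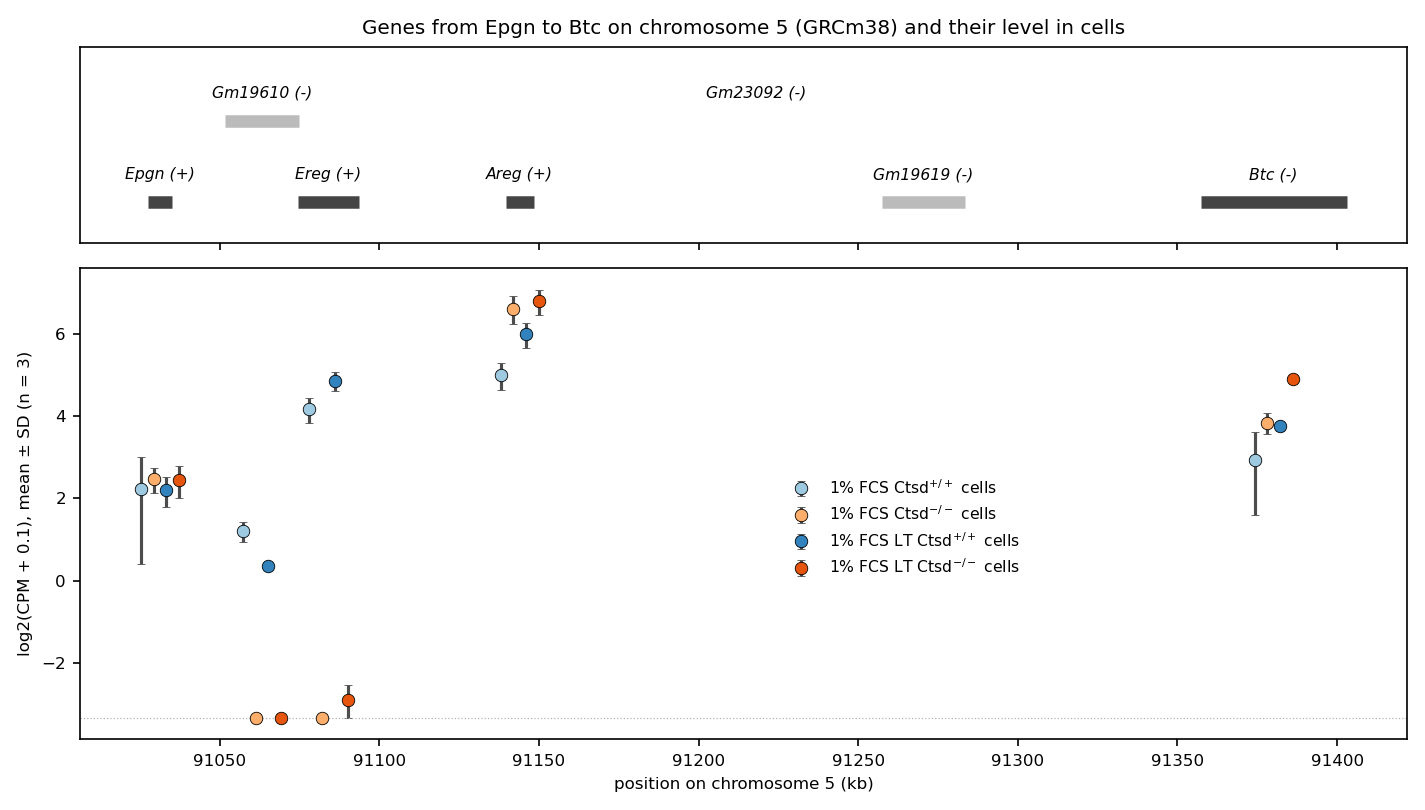
Map of the genes from Epgn to Btc on chromosome 5 (upper panel, position in kb, strand in brackets) above the level of 5 of them in cells as log2(CPM + 0.1) with mean ± SD over 3 samples (lower panel). Both Ctsd−/− groups lie at or next to 0 CPM (dotted line) for Ereg and Gm19610 and above the Ctsd+/+ groups for Areg and Btc. Gm23092 and Gm19619, with at most 11 counts in a cell sample, are on the map without levels.

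Per kb of exon the ligands ranked differently in the 2 lines. In Ctsd+/+ cells of 1% FCS Hbegf (30.1 ± 15.3 CPM per kb) and Areg (26.1 ± 5.81) overlapped at the top, and Nrg1 (7.23 ± 2.43), Ereg (4.33 ± 0.915), Tgfa (3.27 ± 0.751) and Btc (1.66 ± 1.02) followed, each overlapping with the next. In Ctsd−/− cells of 1% FCS the order was Areg (79.9 ± 18.3), Hbegf (47.1 ± 5.52), Tgfa (31.2 ± 5.51), Btc (3.14 ± 0.533) and Nrg1 (1.44 ± 0.0797) with no overlap of neighbours. The order of these 5 was the same in Ctsd−/− LT, where Areg had 91.0 ± 18.8 CPM per kb. In Ctsd+/+ LT the order was Areg (51.9 ± 10.5), Hbegf (18.5 ± 4.84), Tgfa (8.41 ± 0.967), Ereg (6.96 ± 1.13), Btc (2.96 ± 0.222) and Nrg1 (0.749 ± 0.215), and Tgfa and Ereg overlapped. The 6 ligands summed to 72.7 ± 21.2 CPM per kb in Ctsd+/+ and 162.6 ± 29.2 in Ctsd−/− cells of 1% FCS, and to 89.4 ± 16.8 and 167 ± 18.8 in LT.

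By group mean Areg led the ligands per length in 5 of the 6 groups, though not in each tumor. Its promoter is shown because Areg was higher in Ctsd−/− cells while Ereg next to it had at most 3 counts in a sample. The 250 bases before its start, from RefSeq on GRCm38.p6 (chr5:91139349-91139598, plus strand), hold 1 copy of the cAMP response element TGACGTCA, in capitals here and the same on both strands:
Areg: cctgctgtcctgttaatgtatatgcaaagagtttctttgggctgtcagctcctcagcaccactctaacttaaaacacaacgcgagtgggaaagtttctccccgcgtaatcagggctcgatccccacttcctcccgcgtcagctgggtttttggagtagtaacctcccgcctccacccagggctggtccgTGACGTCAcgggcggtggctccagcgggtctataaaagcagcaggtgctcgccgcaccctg
This motif was searched for on both strands in the 250 bases before the start of 32851 promoter entries and was found in 508 of them (1.55%). Of the members, 6 matched a promoter entry, and Egfr, Erbb2, Erbb4, Tgfa and Btc had no copy in this window. A match describes the letters and shows neither a binding site nor a cause.

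Among the ligands outside the members, Nrg2, a second neuregulin, was the 1 of 3 tested in cells that passed. In both genotype comparisons it was higher, beside 23.5% of all genes higher in 1% FCS and 20.5% in LT. Nrg2 had 1.80, 1.34 and 2.49 CPM in Ctsd+/+ against 5.45, 5.34 and 5.79 CPM in Ctsd−/− cells of 1% FCS. After 12 weeks the levels were 0.703, 0.160 and 0.634 CPM in Ctsd+/+ against 13.2, 8.55 and 6.94 CPM in Ctsd−/− cells. Ctsd−/− cells were above Ctsd+/+ cells at both times (log2 fold changes 1.55 and 4.25, adjusted p = 0.00685 and 2.38e-05), and the effects differed by 2.70 (adjusted p = 0.00447). Egf was under 1.2 CPM in every cell sample, Nrg3 had no read in any, and Nrg4 had at most 4 counts.

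The genes for ligand release, metalloproteases of the ADAM family and the rhomboid-like proteins that carry ADAM17 to the cell surface, went both ways in Ctsd−/− cells of 1% FCS. Of 9 tested, 2 were higher and 5 lower, beside 23.5% and 25.1% of all genes, with a median log2 fold change of −0.51 beside 0.0002 for all genes. Adam19 had 17.5, 22.9 and 37.2 CPM in Ctsd+/+ cells and no read in Ctsd−/− cells, at least 291.9-fold lower. It passed the filter through the Ctsd+/+ group of 1% FCS alone and so had to differ. Adam9 (−1.06) and Adam15 (−0.66) were lower too. Adam8 was higher, with 2.04, 1.37 and 7.33 CPM in Ctsd+/+ against 26.6, 89.0 and 103.3 CPM in Ctsd−/− cells (4.33, SE 0.64, adjusted p = 0.000193). In LT 1 was higher (Adam10, 0.48) and 2 were lower (Rhbdf2, −0.71, and Adam17, the main sheddase of several EGFR ligands, −0.32), beside 20.5% and 19.1% of all genes. Long-term culture of Ctsd+/+ cells left 4 counts of Adam19, a ratio of 737.7 (95% counting interval 288.1 to 2707, counting error only). There 2 of the 9 genes rose and 3, Adam19 among them, fell, beside 23% and 23.4% of all genes. In Ctsd−/− cells edgeR called 0 of the 9 with time, DESeq2 called 1 and limma-voom 0, beside 361, 1084 and 303 of all genes. At an unadjusted p under 0.05 edgeR gave 2, beside 2727 of all 15178 genes. In tumors edgeR, DESeq2 and limma-voom each called 0. At an unadjusted p under 0.05 each gave 2, beside 1665, 2128 and 1377 of all 18617 genes. At an uncorrected p under 0.1, 2 were higher, Adam12 (1.14) and Adam15 (0.54), beside 8.44% of all genes.

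Inhibitors and degradation factors of the receptors went both ways. Of 18 tested, 5 were higher and 6 lower in Ctsd−/− cells of 1% FCS, and 6 and 5 in LT, with medians of 0.001 and 0.11. The shares of all genes beside them were 23.5% and 25.1% in 1% FCS and 20.5% and 19.1% in LT. Cblc, a ubiquitin ligase of the CBL family found in epithelia, was higher in 1% FCS (6.28 ± 1.30 against 32.4 ± 2.00 CPM, log2 fold change 2.36), and Lrig1, which lowers receptor protein, was higher at both times (0.65 and 0.90). Sh3kbp1, which encodes the CBL-binding adaptor CIN85, was lower at both (−2.84 and −0.89), as was its relative Cd2ap in LT (−0.73). Socs4 (−1.14) was lower in LT, and Usp8, a deubiquitinase of endosomes, was higher there (0.76). With time in Ctsd+/+ cells 5 were higher and 9 lower, beside 23% and 23.4% of all genes (median −0.39 beside 0.0046), led by Cblc (2.71) and Lrig3 (−1.19). In Ctsd−/− cells 1 changed, Sh3kbp1 (1.00), beside 1.57% of all genes higher, and it did not pass the test without replicate 1, 2 or 3 of Ctsd−/− 1% FCS. Like Erbb3, Cblc was higher in Ctsd−/− cells of 1% FCS and rose with time in Ctsd+/+ cells, and its genotype effects differed by −3.01 (SE 0.22). In tumors 1 was higher at an uncorrected p under 0.1 (Cblb, 0.64), beside 8.44% of all genes.

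In the chain from adaptors to ERK, 6 of 20 were higher at each time in Ctsd−/− cells and 1 was lower, with medians of 0.14 and 0.20. Of all genes 23.5% were higher and 25.1% lower in 1% FCS and 20.5% and 19.1% in LT. Gab2, a docking protein, was higher at both (0.80 and 1.56), Map2k2 (0.54) in 1% FCS, and the scaffold Ksr1 (3.91, 1.13 ± 0.292 against 17.1 ± 6.16 CPM) and Rasa1 (0.76), which turns RAS off, in LT. Gab1 was lower in 1% FCS (−0.69) and the adaptor Grb2 in LT (−0.53). Of the 20 genes of the PI3K, PLC, SRC and STAT chains, 5 were higher and 4 lower in 1% FCS and 7 and 2 in LT, with medians of 0.13 and 0.17 and the same shares of all genes beside them. Eps8, a substrate of EGFR, was higher at both times (1.85 and 0.55), and Pik3r1, the regulatory subunit of PI3K, was lower at both (−1.35 and −1.19). Stat3 (−1.38) and Stat5a (−1.60) were lower in 1% FCS, and Fyn (2.15) and Plcg1 (1.33) were higher in LT. With time in Ctsd+/+ cells 4 genes of the first list rose and 8 fell, and 7 and 6 of the second, beside 23% and 23.4% of all genes. In Ctsd−/− cells edgeR called 0 of either list with time, DESeq2 called 2 and 0, and limma-voom called 0 and 0. Over all genes edgeR called 361, DESeq2 1084 and limma-voom 303. At an unadjusted p under 0.05 edgeR gave 4 and 1, beside 2727 of all 15178 genes. In tumors 2 and 3 were higher and 0 and 1 lower at the uncorrected threshold, beside 8.44% and 8.27% of all genes, with Ptpn11 (0.46), Akt2 (0.59) and Nck1 (−0.70) among them.

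Genes that ERK signaling is known to induce, which include its feedback inhibitors, were mostly higher in Ctsd−/− cells where the cell genotypes differed. Of 18 tested, 7 were higher and 1 lower in Ctsd−/− cells of 1% FCS (median 0.42) and 9 and 1 in LT (median 0.49), beside medians of 0.0002 and 0.0144 for all genes. The shares of all genes were 23.5% higher and 25.1% lower in 1% FCS and 20.5% and 19.1% in LT. Ccnd1, which encodes cyclin D1, had 430.5 ± 122 CPM in Ctsd+/+ against 1702 ± 361.8 in Ctsd−/− cells of 1% FCS (1.98, SE 0.21). Spred3, an inhibitor of the RAS-ERK chain, was higher at both times (1.51 and 2.61), Dusp5, an ERK phosphatase, in 1% FCS (1.46), and Etv1 (3.77) and Etv4 (1.41), ETS factors, in LT. The 1 exception was the same at both times. Egr1, an immediate early gene, had 143.8, 152.9 and 97.8 CPM in Ctsd+/+ against 16.6, 9.37 and 11.2 CPM in Ctsd−/− cells of 1% FCS. After 12 weeks the levels were 117.7, 99.4 and 92.2 CPM in Ctsd+/+ against 11.5, 7.16 and 9.77 CPM in Ctsd−/− cells. The genotypes were far apart (log2 fold changes −3.41 and −3.44, adjusted p = 1.33e-06 and 2.17e-06). With time 2 rose (Ier3, 1.29, and Ccnd1, 1.10) and 6 fell in Ctsd+/+ cells, Etv1 (−1.82) most, beside 23% and 23.4% of all genes. In Ctsd−/− cells 1 rose, Etv1 (1.26), beside 1.57% of all genes, and with some single samples left out it did not pass the test. In tumors 4 were higher and 0 lower at an uncorrected p under 0.1, beside 8.44% and 8.27% of all genes, among them Spry4 (0.67) and Spred2 (0.59). Over the 89 genes of the 6 lists edgeR called 0 after adjustment in tumors, with 9 at an unadjusted p under 0.05, DESeq2 called 3 and limma-voom 0. Over all 18617 genes these counts were 1 and 1665 for edgeR, 265 for DESeq2 and 2 for limma-voom. Of the 88 tested in cells, edgeR called 2 with time in Ctsd−/− cells, with 12 at an unadjusted p under 0.05, DESeq2 called 6 and limma-voom 2, beside 361, 2727, 1084 and 303 of all 15178 genes. The 3 genes that DESeq2 called in tumors were the further ligands given above.

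The genes most like each member over the 12 cell samples were found by the root-mean-square difference of centred log2 CPM, a description of likeness alone. Erbb3 was closest to Rab25 (0.203) and Ptpn18 (0.221), and Egfr to Fpgt (0.3) and Ccn2 (0.322). Tgfa was closest to Mfsd13a (0.226) and Rapgef3 (0.308), Nrg1 to Slc12a4 (0.349) and Cpq (0.350), and Btc to Gcnt1 (0.203) and Jag2 (0.315). Ereg was closest to Fbxw17 (0.559) and Map9 (0.630), which also had mean levels of 33.1 and 15.5 CPM in Ctsd+/+ cells of 1% FCS and at most 0.00913 CPM in Ctsd−/− cells. The nearest genes were Lcor and Exoc6 for Areg, Gab2 and Tgif1 for Hbegf, Cdk13 and Slc30a7 for Erbb2, and Pde7b and Ccdc28b for Erbb4.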

How the data were processed

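Read counts per gene, made by the authors with STAR against mm10 according to the labels, were used as deposited; the annotation release is not given in the sources used here. Tumor counts were taken regardless of strand and cell counts from the reverse strand, after the share of reads on each strand had been examined, and the 4 summary lines were left out. GENCODE M21 gave symbols for 45143 of 45706 identifiers, exon lengths and positions. Genes were filtered by filterByExpr, scaled by TMM and tested in edgeR 4.0.16 (R 4.3.3, quasi-likelihood F-test, Benjamini-Hochberg adjustment over all tested genes), separately for tumors and cells. DESeq2 1.42.0 and limma-voom (limma 3.58.1) were among the alternatives. Named genes of each list are up to 3 per direction with the largest called change; Gm19610 lies outside this rule. Ratios against groups with few counts use the counts themselves, with a floor of 3 counts per library at 0. The members and lists were chosen with earlier results of these data known.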

Additional observations from a re-analysis of the deposited data

Results flagged for a closer look

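For 2 members 1 MMTV-cre;Ctsd−/− tumor stood far from the other 3, its gap to the nearest taking up most of the range of the 4. Erbb2 was 70.23 CPM in MMTV-cre;Ctsd−/− tumor replicate 2, and Btc was 17.82 CPM in MMTV-cre;Ctsd−/− tumor replicate 1, each the highest of 4. Such gaps were looked for in 20 sets of 4, the 10 members in each tumor group, and chance gives about 1 in 20. For 3 members the genotype effect differed between the culture times by a test of the difference itself: the effect in 1% FCS LT minus that in 1% FCS was −3.613 for Erbb3, −1.587 for Tgfa and 3.821 for Nrg1 on the log2 scale.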

How the results depend on the processing

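The alternatives were DESeq2, limma-voom, DESeq2 size factors, CPM on total gene counts, no filter, at least 10 counts in every sample, a replicate block, each sample left out, only the groups of a comparison, counts regardless of strand, the 8 cell samples of 1 LR number, and adipocyte or luminal markers as covariates in tumors.

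In tumors the members lower at an uncorrected p under 0.1 were 2 with limma-voom, 2 with the replicate block, 2 with the adipocyte covariate, 0 with the luminal covariate and 1 to 2 with single tumors left out. With limma-voom 2850 of all 18617 genes had such a p in either direction. The other counts have no share of all genes beside them and are not set against a background. Signs turned with the adipocyte covariate for Egfr (0.171), Hbegf (0.335) and Nrg4 (−0.056), and with the luminal covariate for Erbb3 (−0.012), Areg (0.421) and Tgfa (−0.213). With single tumors left out they turned for Egfr (0.115 and 0.011, range −0.371 to 0.115), Erbb2 (−0.055, −0.074 and −0.146, range −0.146 to 0.346), Erbb3 (−0.069 to 0.286) and Tgfa (−0.174 to 0.214).

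In 1% FCS the members lower in Ctsd−/− cells were 3 with at least 10 counts in every sample and 3 with only the groups of the comparison, and 3 to 5 with single samples left out, where 3 to 4 were higher. In LT, 2 were lower with at least 10 counts in every sample, and 3 to 5 were higher and 4 to 5 lower with single samples left out. The filter of 10 counts removes Ereg and Erbb4, which accounts for these lower counts. With time in Ctsd−/− cells the members higher were 1 with DESeq2, 1 with limma-voom, 1 without a filter, 1 in the 8 samples of 1 LR number and 2 with only the groups of the comparison. With time in Ctsd+/+ cells they were 5 with DESeq2, 5 with limma-voom, 5 without a filter and 3 to 4 with single samples left out. For the interaction 2 were higher in the 8 samples. With time in Ctsd−/− cells DESeq2 and limma-voom called 666 and 182 of all 15178 genes higher. In Ctsd+/+ cells they called 3601 and 3552 higher. The counts from the other alternatives have no share of all genes beside them and are not set against a background.

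Erbb4, with 4 counts or fewer in each Ctsd−/− group, turned with time in Ctsd−/− cells (3.06, 0.072 and 0.036, range −3.528 to 3.06) and in the interaction (−3.917 to 2.672) with single samples left out. The interaction also turned for Btc (−0.473 in the 8 samples, −0.367 to 0.539 with single samples left out) and Hbegf (−0.008 to 0.758). Except for the filter of 10 counts, the cause was not tested.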
